A study of Mus musculus with 12 samples.

Results

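Chil3, Siglecf, Plet1, Car4, Pparg, Tgfbi and Pygl are genes by which macrophages of the lung air spaces are told from other macrophages. Their expression was followed across 12 Affymetrix mouse arrays, 4 groups of 3, of which 6 arrays carry lavage cells and 6 carry a cell line. Probe sets that the platform annotation pairs with exactly 1 gene symbol were taken, which gave 12 probe sets for the 7 genes, out of 22690 probe sets and 12393 genes on the array. Tgfbi has 4 such probe sets, Car4 and Plet1 have 2 each and the other 4 genes have 1. A further probe set, paired with both Chil4 and Chil3, was left out by this rule. The 7 genes were selected on their measured levels on these arrays, high in lavage cells and low in the cell line, so their lavage against cell line levels are described below without a test.

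The Pregnant group is bronchoalveolar lavage cells of pregnant mice and the Control group is lavage cells of control mice. The Estradiol group is RAW264.7 cells cultured overnight with estradiol at 1 ug/mL, and the Unstimulated group is RAW264.7 cells without it, which the design text says received vehicle. Bronchoalveolar lavage collects the loose cells of the air spaces with a saline rinse, and RAW264.7 is a single transformed mouse macrophage-like line derived from a male animal. The design text states that lavage RNA was extracted directly, yet the overnight estradiol text is attached to the lavage samples as well, so the group label decided the groups. Strain, age, stage of pregnancy, sex of the control mice, the vehicle and any sorting of the lavage cells are not given in the sources used here. Nothing in the labels says that the replicates are separate cultures, animals or pools, so each p-value is set against a spread that covers these samples and may be technical.

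Alveolar macrophages live on the surface of the air spaces, where they take up surfactant, dust and microbes. In mice they settle from fetal precursors around birth under granulocyte-macrophage colony-stimulating factor (GM-CSF) made by the alveolar epithelium, together with TGF-beta, and both signals lead to expression of the nuclear receptor PPARG, without which surfactant lipid accumulates. A set of further genes then marks the mature cell, among them the surface lectin Siglec-F, the membrane-anchored carbonic anhydrase 4 and the secreted chitinase-like protein Chil3, also called Ym1. RAW264.7 cells share the general macrophage programme but were never conditioned by the lung.

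The promoters of the members were read from RefSeq (build GRCm38.p6), 250 bases before and 50 after each transcription start, and are shown because all 7 genes were high in the same samples. All 7 had an entry, 6 with 1 promoter and Pparg with 3. Capitals mark matches to sites of factors that act in macrophages. The Chil3 promoter is shown with that of its neighbour Chil4, since an array probe set cannot always separate the pair; it lies on the minus strand at chr3:106167515-106167814 and that of Chil4 on the minus strand at chr3:106219430-106219729. The Siglecf promoter is on the plus strand at chr7:43351091-43351390, the Plet1 promoter on the plus strand at chr9:50494275-50494574 and the third Pparg promoter on the plus strand at chr6:115421816-115422115.
Chil3: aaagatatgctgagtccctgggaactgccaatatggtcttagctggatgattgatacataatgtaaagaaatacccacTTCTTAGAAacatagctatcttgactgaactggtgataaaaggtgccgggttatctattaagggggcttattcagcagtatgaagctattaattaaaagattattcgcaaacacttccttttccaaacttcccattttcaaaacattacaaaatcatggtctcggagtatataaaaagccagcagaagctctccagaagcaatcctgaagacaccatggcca
Chil4: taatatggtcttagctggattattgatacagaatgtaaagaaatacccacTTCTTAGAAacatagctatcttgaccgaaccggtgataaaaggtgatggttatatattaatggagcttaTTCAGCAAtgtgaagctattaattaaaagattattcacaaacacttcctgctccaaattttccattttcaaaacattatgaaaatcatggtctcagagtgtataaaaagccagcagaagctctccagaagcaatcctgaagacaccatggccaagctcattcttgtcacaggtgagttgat
Siglecf: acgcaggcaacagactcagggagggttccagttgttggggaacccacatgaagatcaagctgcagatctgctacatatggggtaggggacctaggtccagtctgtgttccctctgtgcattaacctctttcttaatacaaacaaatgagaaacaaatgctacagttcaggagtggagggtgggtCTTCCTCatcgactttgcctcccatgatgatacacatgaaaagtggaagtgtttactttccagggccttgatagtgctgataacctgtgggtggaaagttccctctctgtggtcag
Plet1: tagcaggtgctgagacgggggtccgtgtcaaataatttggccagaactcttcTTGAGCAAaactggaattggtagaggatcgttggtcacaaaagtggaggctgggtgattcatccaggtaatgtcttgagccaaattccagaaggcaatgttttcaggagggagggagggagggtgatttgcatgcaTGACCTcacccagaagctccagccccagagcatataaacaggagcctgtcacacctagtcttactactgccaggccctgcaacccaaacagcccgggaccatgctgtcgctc
Pparg: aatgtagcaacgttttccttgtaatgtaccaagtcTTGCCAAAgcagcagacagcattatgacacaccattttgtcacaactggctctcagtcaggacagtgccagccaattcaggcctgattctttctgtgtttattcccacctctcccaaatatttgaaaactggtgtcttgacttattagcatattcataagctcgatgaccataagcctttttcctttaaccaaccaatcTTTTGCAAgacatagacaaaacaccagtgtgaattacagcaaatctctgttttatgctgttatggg

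Aligned end to end, the Chil3 and Chil4 promoters have 251 identical bases of 300 (83.7%), and both hold the STAT site TTCTTAGAA, which in Chil3 starts at position -172 counted from the transcription start. Chil4 has a further match, to the C/EBP site on the opposite strand, at -131. The capitals in Siglecf are the PU.1 site on the opposite strand, at position -66. In Plet1 they are a C/EBP site at -198 and the nuclear receptor hexamer at -62, both on the opposite strand. In Pparg they are C/EBP sites, at -215 on the strand shown and at -16 on the opposite strand.

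Over the 9 member promoters, 7 motifs were searched on both strands. The PU.1 site GAGGAAG was in 1 of 9 member promoters and in 13.6% of all 32851 promoters. The C/EBP site TTGCNNAA was in 2 of 9 against 10.8% of all promoters, the STAT site TTCNNNGAA in 1 of 9 against 8.30%, and the E-box CACGTG in none of 9 against 7.15%. The nuclear receptor hexamer AGGTCA was in 4 of 9, namely Plet1, Pygl and the first and second Pparg promoters, against 16.3% of all promoters. This hexamer is part of the PPAR-RXR direct repeat and overlaps the estrogen response element, and neither of these longer motifs was in a member promoter; they were in 0.0396% and 0.070% of all promoters. The Car4 and Tgfbi promoters held none of the 7 motifs. Base composition ranged widely, from 38.7% G or C in the Chil3 promoter to 80.3% in the first Pparg promoter, around a median of 52.7% over all promoters. No single motif was shared by all 7 genes in these windows.

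After the authors' RMA processing, median intensities lay between 369 and 393, which does not speak to the brightness of the arrays before processing. Pearson correlations of log2 values over all genes, which are not independent replicates, were 0.995 to 0.999 within groups and 0.904 to 0.910 between lavage and RAW264.7 arrays. Estradiol replicate 2 stood apart in RNA quality: the difference between the 3' and 5' probe sets was 0.74 (log2) for beta actin and 4.31 for the transferrin receptor, against 0.39 to 0.48 and 3.16 to 3.43 on the other RAW264.7 arrays. Of the lavage arrays, pregnant replicate 2 read highest, at 0.39 and 3.86. The other lavage arrays read 0.26 to 0.35 for beta actin and 2.83 to 3.47 for the transferrin receptor. Of 12 core macrophage genes, each of the 4 groups had 11 above the 40th percentile on its 3 arrays, among them the CSF1 receptor gene Csf1r, the lysosomal marker Cd68 and lysozyme Lyz2. Probe sets of the Y-linked genes Eif2s3y, Kdm5d and Uty read 3.34 to 4.25 (log2) on the lavage arrays and 8.84 to 12.46 on the RAW264.7 arrays. Sex, source and any batch therefore cannot be told apart between lavage and RAW264.7 samples.

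All 7 genes were bright in lavage cells and dim in RAW264.7 cells. On each of the 7, every lavage array lay above every RAW264.7 array, as it did for 23.3% of all genes. Values below are deposited linear intensities, given array by array, and log2 levels are log2(intensity + 1). The deposited table has no detection calls, so a value below its array's 40th percentile of genes (7.20 to 7.28 log2 on RAW264.7 arrays, 7.42 to 7.53 on lavage arrays) is called dim. None of the 7 genes reached that percentile on any of the 6 RAW264.7 arrays. Folds against a dim group were taken with RAW264.7 and lavage values below the 40th percentile raised to it. Such a fold is a lower bound where every lavage array compared lies above the limit. The limits are higher on lavage arrays, so a gene dim on every array of both groups gets 1.21-fold from them alone.

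Pparg, the ligand-activated receptor that directs lipid handling in alveolar macrophages, read 6252, 5767 and 7479 in pregnant lavage and 6081, 5693 and 6570 in control lavage. In RAW264.7 it read 65.5, 89.4 and 90.1 with estradiol and 82.1, 75.9 and 84.7 unstimulated. Control lavage was at least 41.0-fold higher than unstimulated RAW264.7. Pparg was the member with the smallest difference, 6.22 log2 units, and the one nearest the dim limit in RAW264.7: it stood at the 33.9 to 35.4 percentile of genes on unstimulated arrays, whereas the other 6 were at or below the 21.8 percentile there.

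Siglecf encodes a sialic acid-binding surface lectin with inhibitory signalling motifs, carried in mice by alveolar macrophages and eosinophils. It read 9267, 8676 and 8077 in pregnant lavage and 9040.1, 9382 and 9544 in control lavage, against 11.6, 12.8 and 11.1 in estradiol-treated and 22.2, 17.4 and 13.4 in unstimulated RAW264.7. The bound was at least 62.6-fold. The 6 eosinophil markers measured lay below the 40th percentile on all 12 arrays. Their summed intensity was 132 to 155 in pregnant lavage and 117 to 129 in control lavage, against 117 to 134 in estradiol-treated and 119 to 131 in unstimulated RAW264.7.

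Plet1, a membrane protein first known from placental and epithelial progenitor cells, read 15641, 14487 and 14722 in pregnant lavage and 14966, 15059 and 15236 in control lavage. In RAW264.7 it read 27.9, 24.5 and 21.5 with estradiol and 24.0, 19.4 and 16.2 unstimulated, a difference of at least 101-fold. Its second probe set saw little of this: 157, 111 and 172 in pregnant lavage and 187, 206 and 127 in control lavage, against 32.3, 34.0 and 35.8 in estradiol-treated and 36.2, 39.9 and 39.3 in unstimulated RAW264.7. That probe set was dim on every pregnant array and above the limit on 2 of 3 control arrays. Its fold with dim values raised was 1.26, which is not a lower bound since a control reading was raised too. Why the 2 Plet1 probe sets differ was not tested.

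Car4, the carbonic anhydrase held on the outer cell membrane by a lipid anchor, read 9934, 9915 and 11177 in pregnant lavage and 10246, 10633 and 10247 in control lavage. RAW264.7 read 18.8, 25.2 and 21.0 with estradiol and 21.0, 36.2 and 25.1 unstimulated, so the bound was at least 69.7-fold. The second Car4 probe set gave a like pattern, 9165 to 9378 in pregnant lavage and 9239 to 10039 in control lavage, against 15.5 to 27.5 in estradiol-treated and 17.4 to 24.6 in unstimulated RAW264.7.

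Among the secreted products, Chil3 codes for a chitinase-like lectin that binds sugars but does not cut chitin. It read 17609, 17332 and 15948 in pregnant lavage and 17577, 18965 and 17184 in control lavage, against 15.7, 14.6 and 13.8 in estradiol-treated and 13.1, 17.3 and 14.4 in unstimulated RAW264.7. Chil3 had the largest lavage minus RAW264.7 difference of all 12393 genes, 10.14 log2 units, or at least 120-fold. Chil4, whose promoter is shown above, was dim on all 12 arrays on its own probe set, at 6.19 ± 0.27 in pregnant lavage, 6.08 ± 0.27 in control lavage, 4.55 ± 0.19 with estradiol and 4.57 ± 0.08 unstimulated (log2, SD, n = 3 each).

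Tgfbi, an extracellular matrix protein that binds integrins and is induced by TGF-beta, read 12424, 12069.6 and 13019.5 in pregnant lavage and 11741, 11904 and 11334 in control lavage. RAW264.7 read 24.5, 22.2 and 24.9 with estradiol and 17.4, 15.9 and 17.3 unstimulated, which gives at least 78.3-fold for control lavage over unstimulated cells. The other 3 Tgfbi probe sets were also high in lavage and dim in RAW264.7, with bounds of at least 33.3-fold, 40.3-fold and 63.2-fold.

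Pygl, the liver form of glycogen phosphorylase, which releases glucose units from glycogen inside the cell, read 11377, 10338 and 10358 in pregnant lavage and 10217, 11095 and 11342 in control lavage. Estradiol-treated RAW264.7 read 34.8, 36.7 and 31.9 and unstimulated RAW264.7 read 24.4, 21.6 and 29.9. The bound was at least 73.1-fold. In bulk RNA a smaller share of cells of a type and less RNA per cell cannot be told apart, which applies to each of these levels.

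**Figure D1:**
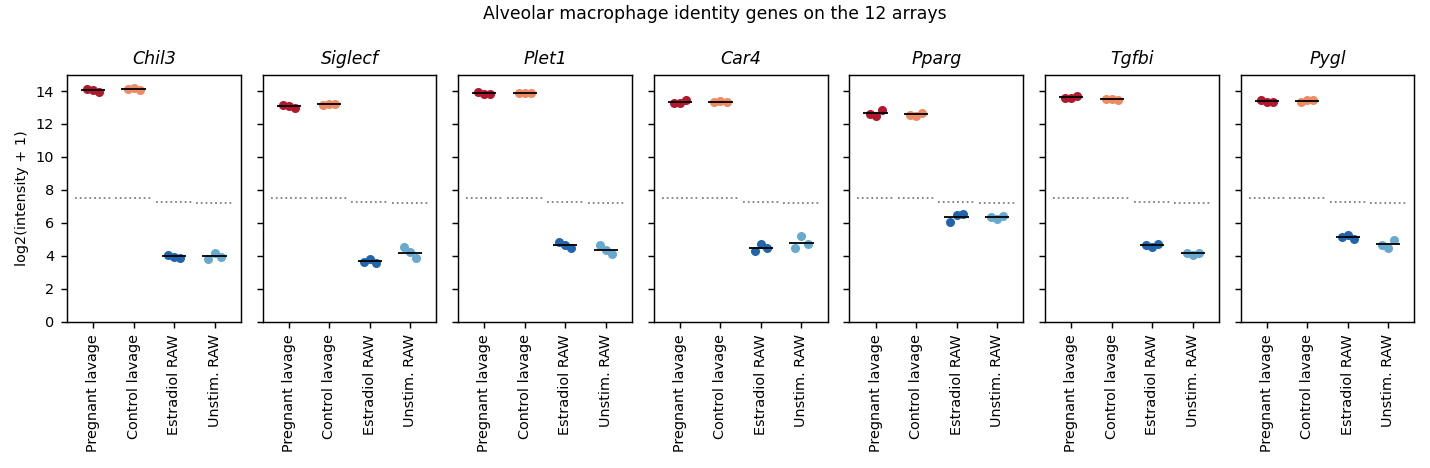
Log2(intensity + 1) of the 7 identity genes on each of the 12 arrays, one panel per gene; points are arrays, short lines are group means (n = 3 each) and dotted lines the mean 40th percentile of genes on the arrays of each group. The lavage arrays stand between 12.48 and 14.21 and the RAW264.7 arrays between 3.59 and 6.51, below the dotted line.

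The median difference of the 7 genes was 8.99 log2 units for control lavage minus unstimulated RAW264.7 (range 6.22 to 10.14) and 8.98 for pregnant lavage minus estradiol-treated RAW264.7 (range 6.30 to 10.08), beside a median of -0.07 over all genes for control lavage minus unstimulated cells. With dim values raised to the 40th percentile the first median was 6.19. Ranked by the difference over 12393 genes, Chil3 was 1, Plet1 2, Tgfbi 3, Siglecf 6, Pygl 11, Car4 13 and Pparg 83. Of the 23 genes with a difference over 8 log2 units, 6 were members. These ranks describe the values that chose the genes and support nothing further.

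**Figure D2:**
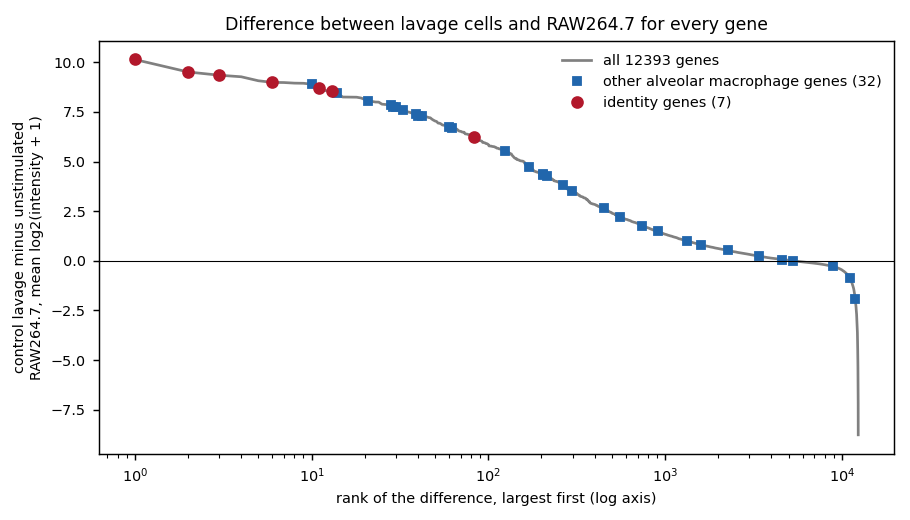
Mean log2(intensity + 1) of control lavage minus unstimulated RAW264.7 (vertical axis, n = 3 each) for all 12393 genes ordered by that difference (horizontal log axis); red circles are the 7 identity genes and blue squares 32 other alveolar macrophage genes. The red circles run from rank 1 to rank 83, and the blue squares extend to negative differences at the right.

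Markers of other cell types were also read in lavage, epithelial and neutrophil genes among them. The 13 epithelial markers summed to 14590 to 31311 in pregnant lavage and 11180 to 28074 in control lavage (linear intensity), against 644 to 742 in estradiol-treated and 664 to 777 in unstimulated RAW264.7, and 7 of 13 were above the 40th percentile on every lavage array. The 9 neutrophil markers summed to 7655 to 12403 in pregnant and 7617 to 22119 in control lavage, with 5 of 9 above that percentile, against 1583 to 1602 in estradiol-treated and 774 to 828 in unstimulated RAW264.7. The 9 T cell markers summed to 1136 to 2401 in pregnant and 1200 to 2947 in control lavage, with 1 of 9 above it, and were higher in RAW264.7, at 7638 to 8120 with estradiol and 10054 to 10381 unstimulated. The 8 endothelial markers, of interest since Car4 also marks lung capillaries, summed to 2705 to 3391 in pregnant and 2306 to 2386 in control lavage, against 893 to 1149 in estradiol-treated and 1220 to 1309 in unstimulated RAW264.7. The part of these other cells in the member levels was not tested.

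Beyond the members, 32 of 38 listed alveolar macrophage genes were measured, and they split into genes dim in RAW264.7 and genes that are bright there too. In control lavage against unstimulated RAW264.7, 23 of 32 were called over 2-fold higher (limma, adjusted p under 0.05), beside 10.7% of all genes, and 1 was called over 2-fold lower, beside 8.88%. Their median difference was 4.31 log2 units, and 3.86 with dim values raised to the 40th percentile, beside -0.07 over all genes as measured. This list and those below were chosen with earlier results of these data known. Their p-values for lavage against RAW264.7 are therefore descriptive, and sex, source and any batch cannot be told apart. The 4 with the smallest p were dim in RAW264.7, so their folds are lower bounds. The apoptosis and junction protein gene Perp averaged 12.87 in control lavage and 3.97 in unstimulated RAW264.7 (log2), at least 50.4-fold higher (limma adjusted p = 1.2e-08). The adhesion molecule E-cadherin, Cdh1, averaged 12.15 and 3.70 in the same groups, at least 30.5-fold higher (limma adjusted p = 1.8e-08). The keratin Krt79 averaged 12.74 and 5.37, at least 46.0-fold higher (limma adjusted p = 1.0e-08), and the lymphocyte adhesion molecule Cd2 13.39 and 6.08, at least 72.1-fold higher (limma adjusted p = 1.4e-08). Perp and Cdh1 are also epithelial genes, and the epithelial sums given above moved with the same contrast; their part in it was not tested.

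Other genes of the list were bright in both sources. Lipoprotein lipase, Lpl, averaged 13.81 ± 0.03 in control lavage and 13.81 ± 0.01 in unstimulated RAW264.7 (log2, SD, n = 3 each). The sterol exporter Abcg1 averaged 13.68 ± 0.05 and 13.15 ± 0.02 in the same groups, and the fatty acid-binding protein Fabp5 13.48 ± 0.03 and 13.76 ± 0.05. Fabp4, a fatty acid carrier and a classical PPARG target, was the gene called over 2-fold lower, at 11.67 ± 0.17 in control lavage and 13.57 ± 0.01 in unstimulated RAW264.7, a difference of -1.90 ± 0.09 (SE; limma adjusted p = 4.2e-06). Fabp4 was bright in the cell line while Pparg itself was dim there.

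**Figure D3:**
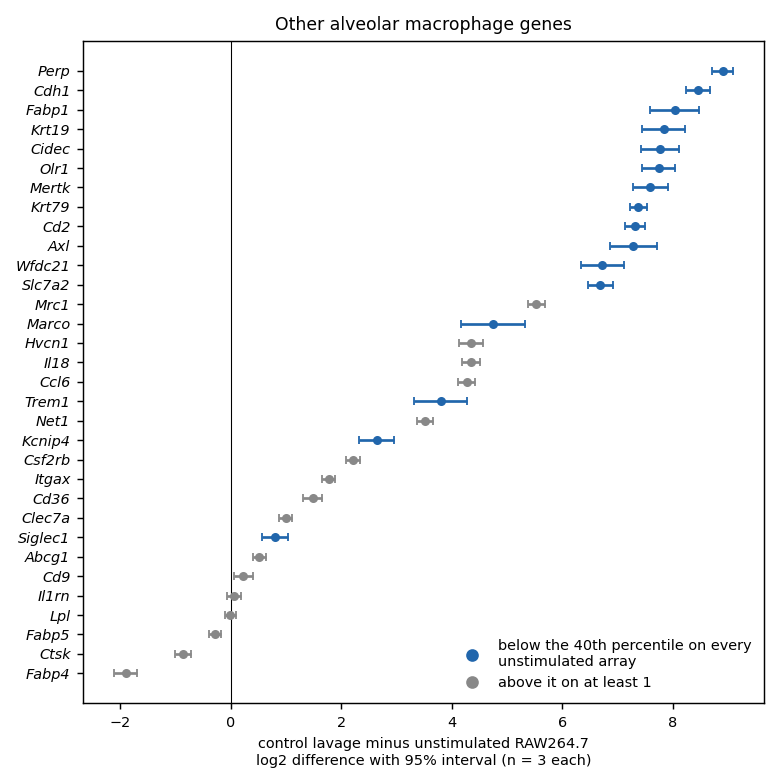
Control lavage minus unstimulated RAW264.7 difference in log2(intensity + 1) with its 95% interval (limma, n = 3 each) for 32 other alveolar macrophage genes; blue marks genes dim on every unstimulated array and grey those above the 40th percentile on at least 1. Perp is highest at 8.90 and Fabp4 lowest at -1.90; the blue differences are taken against readings below the dim limit and depend on the background there.

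Of 21 measured genes acting upstream of the identity programme, in GM-CSF and TGF-beta signalling or as transcription factors, 18 were above the dim limit on every control lavage array and 19 on every unstimulated RAW264.7 array. By limma, 16 of 21 were called higher in control lavage, beside 27.9% of all genes at any size of change, and 2 lower, beside 34%. Of these calls, 11 were over 2-fold higher and none over 2-fold lower. The shared GM-CSF receptor chain Csf2rb was higher by 2.22 ± 0.05 (log2, SE), Csf2ra by 1.51 ± 0.05, the PPARG partner Rxra by 2.61 ± 0.06 and the myeloid factor Cebpa by 2.18 ± 0.07 (limma adjusted p at most 1.3e-06 for the 4). Spi1, which encodes PU.1, averaged 12.39 ± 0.03 in control lavage and 12.03 ± 0.03 in unstimulated RAW264.7 (log2, SD, n = 3 each). Of 14 PPARG targets, 9 were called higher and 3 lower, at any size of change. The lipid droplet protein gene Cidec averaged 12.77 in control lavage and 5.002 in unstimulated RAW264.7 (log2), at least 47.0-fold higher (limma adjusted p = 8.7e-08). The kinase gene Pdk4 averaged 11.72 and 4.14, at least 22.6-fold higher (limma adjusted p = 5.2e-07), both genes being dim in RAW264.7. The lipase inhibitor Angptl4, bright in both, was higher by 4.15 ± 0.10 (log2, SE; limma adjusted p = 2.0e-07). Of 14 genes responsive to TGF-beta, the pathway that induces Tgfbi, 10 were called higher and 1 lower, beside 27.9% and 34% of all genes. However, 7 of the 14 were dim in both groups, so any call among them is between readings near background. The median difference of the 14 was 1.25 log2 units as measured and 0.27 with dim values raised to the limit. The latter is what the limits alone give to a gene dim on every array of both groups. Bright in both, transglutaminase Tgm2 was higher by 2.79 ± 0.07 and the feedback repressor Skil by 1.98 ± 0.07 (log2, SE; limma adjusted p at most 1.2e-06).

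Of 5 sialic acid lectins measured beside Siglecf, all 5 were called higher in control lavage than in unstimulated RAW264.7, beside the 27.9% of all genes given above. Siglec1 was dim on all 12 arrays, averaging 6.26 in control lavage and 5.45 in unstimulated RAW264.7 (log2), so its call is between readings near background. Cd22 averaged 12.50 in control lavage and 5.37 in unstimulated RAW264.7 (log2), where it was dim, and was at least 39.0-fold higher (limma adjusted p = 6.3e-09). Siglece, bright in both, was higher by 4.26 ± 0.06 (log2, SE; limma adjusted p = 2.8e-08). Cd22 is best known as a B cell receptor, and it was the only 1 of 7 B cell markers above the 40th percentile on every lavage array. Of 15 carbonic anhydrases measured beside Car4, 4 were called higher and 6 lower, including the cytosolic Car2, lower by -3.68 ± 0.15 (limma adjusted p = 2.8e-06). Of 17 genes of glycogen metabolism measured beside Pygl, 5 were called higher and 7 lower. For both lists these counts lie near the 27.9% and 34% of all genes. In this comparison 10 of the 15 carbonic anhydrases were dim, the called Car12 and Car15 among them, as were 4 of the 17 glycogen genes. The branching enzyme Gbe1 was lower by -1.60 ± 0.18 (limma adjusted p = 3.4e-04). Of 5 chitinase family genes measured beside Chil3, 2 were called higher and 2 lower, and 3 of the 5 were dim in this comparison.

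Whether estradiol moved the identity genes in RAW264.7 cells is a question about signals near background, since all 7 were dim on all 6 arrays. By limma over all genes, 1 of 7 passed an adjusted p of 0.05, beside 11.4% of all genes, and that was Tgfbi. Both groups lie below the dim limit, so the log2 changes given here are differences between readings near background and are not given as folds. The 2 groups did not overlap for Siglecf, Tgfbi and Pygl, that is for 3 of 7, beside 34.8% of all genes.

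Tgfbi read 4.67, 4.54 and 4.69 (log2) on the estradiol arrays and 4.20, 4.08 and 4.20 on the unstimulated arrays. The change was 0.48 ± 0.06 log2 units (SE, 95% interval 0.32 to 0.63, limma adjusted p = 0.0053). Without estradiol replicate 2, the array of lower RNA quality, it was 0.53 (limma adjusted p = 0.0042). Only this probe set of 4 showed it: the other 3 changed by 0.03, -0.07 and -0.14, with limma adjusted p of 0.93, 0.46 and 0.28 when every probe set was tested on its own. With the mean of the 4 probe sets as the gene's value the change was 0.07 and the call was lost (limma adjusted p = 0.47). Among 14 other genes responsive to TGF-beta, 9 were dim in this comparison. None of the 14 was called, beside 11.4% of all genes. In the limma fit with 1 probe set per gene, 2 of them had an unadjusted p under 0.05, beside 3331 of 12393 genes.

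**Figure D4:**
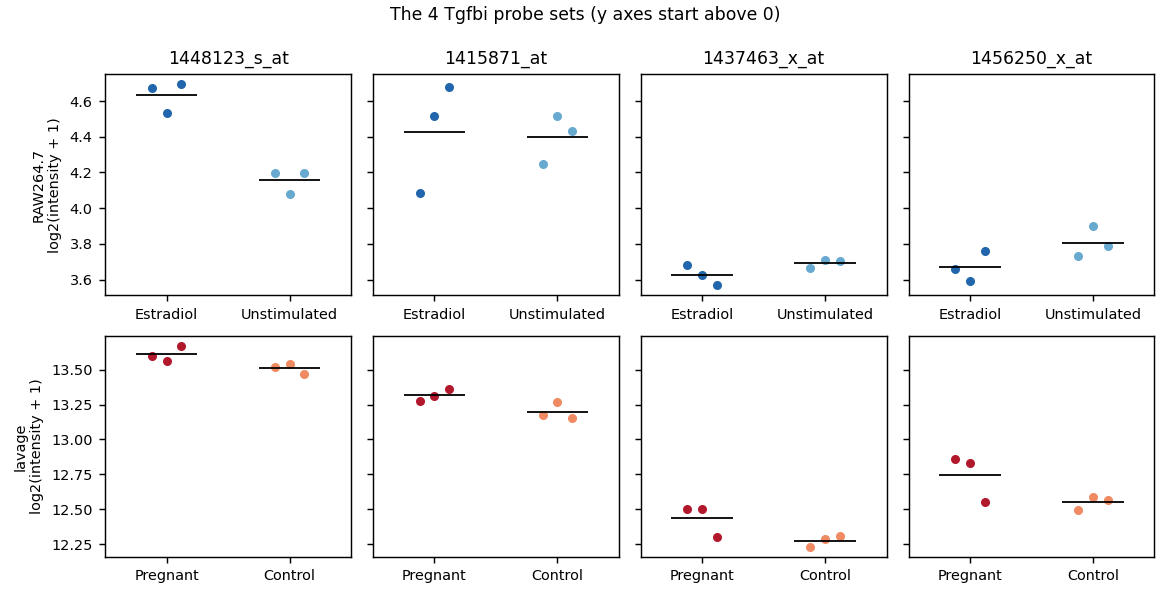
Log2(intensity + 1) of the 4 Tgfbi probe sets, upper row estradiol and unstimulated RAW264.7, lower row pregnant and control lavage; points are arrays, lines are group means (n = 3 each), and the vertical axes start above 0. In the upper row the estradiol arrays lie above the unstimulated arrays at the first probe set and overlap or lie lower at the others.

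The remaining 6 genes did not pass. Pygl read 5.16, 5.24 and 5.04 (log2) with estradiol and 4.67, 4.50 and 4.95 unstimulated, a change of 0.44 ± 0.12 (SE, 95% interval 0.16 to 0.72, limma adjusted p = 0.059). Siglecf read 3.65, 3.79 and 3.59 with estradiol and 4.54, 4.21 and 3.85 unstimulated, a change of -0.52 ± 0.16 (95% interval -0.91 to -0.13, limma adjusted p = 0.094). For both, unstimulated replicate 3 was the array nearest to the estradiol arrays, and without it both passed: Pygl at 0.56 (limma adjusted p = 0.023) and Siglecf at -0.69 (limma adjusted p = 0.029). Plet1 changed by 0.30 ± 0.15 (limma adjusted p = 0.25) and Car4 by -0.30 ± 0.20 (limma adjusted p = 0.38). Chil3 and Pparg had changes near 0, with 95% intervals of -0.26 to 0.23 and -0.30 to 0.30. No member came above the dim limit with estradiol.

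Around the members, estradiol left a mixed picture in RAW264.7. Of the 32 other alveolar macrophage genes, 1 rose, beside 6.75% of all genes, and 4 fell, beside 4.66%. Mrc1, the mannose receptor CD206, averaged 8.56 ± 0.13 with estradiol and 7.85 ± 0.03 unstimulated (log2, SD, n = 3 each), a rise of 0.71 ± 0.07 (SE, limma adjusted p = 0.0016). The genes that fell were Fabp4, by 0.25 on the log2 scale (limma adjusted p = 0.014), the integrin CD11c gene Itgax, by 0.49 (limma adjusted p = 0.026), the fatty acid and lipoprotein receptor Cd36, by 0.52 (limma adjusted p = 0.038), and the beta-glucan receptor Clec7a, by 0.27 (limma adjusted p = 0.046), named after its value was seen. Of the 32 genes, 16 were dim in this comparison. When any 1 unstimulated array was left out, the calls of Fabp4, Itgax and Cd36 were lost (limma adjusted p 0.066 to 0.13), while Mrc1 stayed called.

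In the upstream group 3 of 21 genes rose with estradiol, beside 6.75% of all genes, and 2 fell, beside 4.66%. The same shares stand beside the other counts of this paragraph. The transcriptional repressor Bhlhe40 averaged 11.09 ± 0.07 with estradiol and 11.58 ± 0.04 unstimulated (log2, SD, n = 3 each; limma adjusted p = 0.0023), and its relative Bhlhe41 7.70 ± 0.11 and 8.12 ± 0.06 (limma adjusted p = 0.012). The integrin subunit Itgav, a receptor chain that activates latent TGF-beta, averaged 12.57 ± 0.03 with estradiol and 12.22 ± 0.03 unstimulated (limma adjusted p = 0.0054). Of 14 PPARG targets none rose and 4 fell, with a median change of -0.18, and 3 of the 14 were dim in this comparison. The 4 were Fabp4, Cd36, Hadha and Acadl. The calls of Fabp4 and Cd36 were lost without any 1 unstimulated array, as given above. Those of Hadha and Acadl (limma adjusted p = 0.017 and 0.033) were not recomputed under the alternatives. In the families of the members, 2 of 17 glycogen genes rose, Gbe1 by 0.34 ± 0.07 (log2, SE; limma adjusted p = 0.020) and the dim muscle phosphorylase Pygm. Of 15 carbonic anhydrases Car13 fell by 0.32 (limma adjusted p = 0.013) and none rose. Chid1, of 5 chitinase family genes, rose by 0.34 ± 0.05 (limma adjusted p = 0.0081), and none of 5 sialic acid lectins was called. Without 1 of several arrays the calls of Gbe1, Pygm and Car13 were lost as well (limma adjusted p 0.051 to 0.083). Bhlhe41 lost its call without unstimulated replicate 2 or 3 (limma adjusted p = 0.053 and 0.056), and Chid1 with all 12 arrays in 1 fit (limma adjusted p = 0.066).

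Pregnancy left the identity genes of lavage cells close to the control values. None of the 7 was called, and all 7 were bright on all 6 arrays. The comparison called 0% of the 12393 genes by limma, with 1163 at an unadjusted p under 0.05, of which none was a member. The 95% intervals of the 7 changes lay within -0.28 to 0.35 log2 units, the lower end being that of Siglecf and the upper end that of Pparg.

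Tgfbi was the member whose 2 groups did not overlap, 1 of 7, beside 15.7% of all genes. It averaged 13.61 ± 0.06 in pregnant lavage and 13.51 ± 0.04 in control lavage (log2, SD, n = 3 each), a change of 0.10 ± 0.06 (SE, limma adjusted p = 0.64). Its other 3 probe sets were also higher on average, by 0.12, 0.16 and 0.20, none of them called (limma adjusted p 0.56 to 0.60). Siglecf averaged 13.08 ± 0.10 in pregnant and 13.19 ± 0.04 in control lavage, a change of -0.11 ± 0.07 (limma adjusted p = 0.67). Pparg changed by 0.08 ± 0.11 (limma adjusted p = 0.84), and its replicates were the most spread of the 7, with an SD of 0.19 in pregnant and 0.10 in control lavage. Chil3 averaged 14.05 ± 0.08 and 14.13 ± 0.07 in pregnant and control lavage (limma adjusted p = 0.76). Plet1, Car4 and Pygl changed by -0.01, -0.01 and -0.03, with limma adjusted p of 0.96, 0.98 and 0.94.

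**Figure D5:**
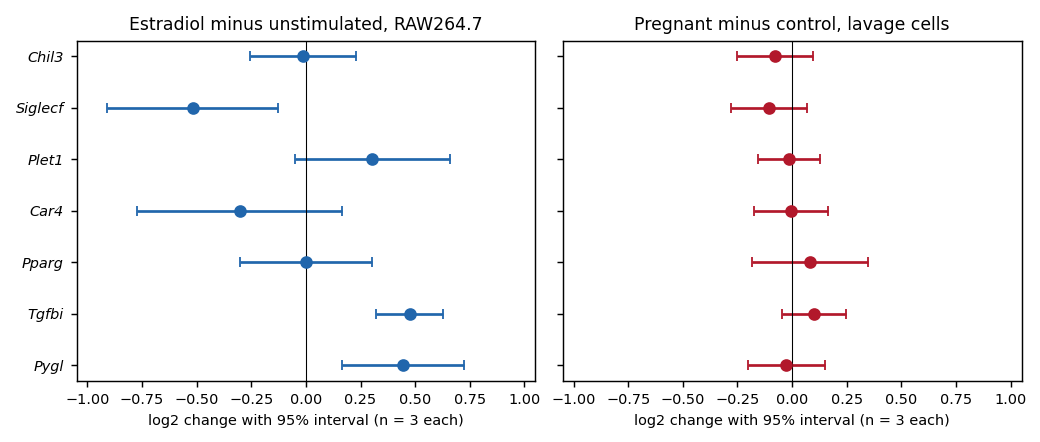
Change of each identity gene in log2(intensity + 1) with its 95% interval (limma, n = 3 per group), left for estradiol minus unstimulated RAW264.7 and right for pregnant minus control lavage. The left intervals of Siglecf, Tgfbi and Pygl do not reach 0, only Tgfbi passing after adjustment over all genes, and the right intervals all include 0.

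Of the 32 other alveolar macrophage genes none was called with pregnancy and 2 had an unadjusted p under 0.05 by limma. Fabp4 averaged 12.46 ± 0.13 in pregnant lavage and 11.67 ± 0.17 in control lavage (log2, SD, n = 3 each), a change of 0.79 ± 0.11 (SE, limma adjusted p = 0.40), and the groups did not overlap. Cdh1 averaged 11.84 ± 0.10 and 12.15 ± 0.09 in the same groups (limma adjusted p = 0.44). The oxysterol receptor Nr1h3, a PPARG target, averaged 10.42 ± 0.14 in pregnant and 9.91 ± 0.10 in control lavage (limma adjusted p = 0.40). Markers of other cells varied within these groups: their median change was 0.44 for the 13 epithelial, -0.82 for the 9 T cell and -0.34 for the 8 monocyte and dendritic cell markers, none of them called. In this comparison 3 of the 13, 8 of the 9 and 5 of the 8 were dim, so the last 2 medians mostly come from readings near background. The median was -0.29 for B cell, -0.15 for neutrophil, 0.11 for eosinophil, 0.07 for endothelial and 0.06 for erythroid markers. Their part in the pregnancy values was not tested.

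The estradiol change and the pregnancy change were also set against each other in a fit of all 12 arrays. Here 1 of 7 members was called, beside 4.43% of all genes, again Tgfbi, with a difference of 0.38 ± 0.09 log2 units (SE, 95% interval 0.19 to 0.56, limma adjusted p = 0.034). This call rested on the same probe set: at the other 3 the difference was -0.09, -0.23 and -0.33, and with the mean of the 4 probe sets it turned to -0.07. It was also lost without any of 10 of the 12 arrays (limma adjusted p 0.055 to 0.095). Pygl differed by 0.47 ± 0.15 (limma adjusted p = 0.11) and Siglecf by -0.41 ± 0.20 (limma adjusted p = 0.28), and the other 4 members had limma adjusted p between 0.35 and 0.85.

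The median spread of the members between replicates was small in lavage, where they were expressed. Their median SD over 3 arrays was 0.08 log2 units in pregnant lavage and 0.04 in control lavage, beside 0.10 over all genes in each. Over genes averaging at or above the mean dim limit, it was 0.093 in pregnant and 0.086 in control lavage. Pparg, the least bright member there, lay above these medians, with an SD of 0.19 in pregnant and 0.10 in control lavage. The members were not set against genes of like brightness. In RAW264.7 the median SD of the members was 0.10 with estradiol and 0.23 unstimulated, beside 0.09 and 0.06 over all genes. Genes averaging below that limit, as the members do there, had 0.11 and 0.10.

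Genes whose profile over the 12 arrays was nearest to a member were found by the root mean square difference of mean-centred log2 values. This measure mostly reflects the lavage against RAW264.7 step that all 12 arrays share. For Siglecf the nearest were the peroxisomal thiolase Acaa1b (0.17), Perp (0.24) and the nucleotide-sugar receptor P2ry14 (0.35). For Tgfbi they were P2ry14 (0.16), AW112010 (0.23) and the formyl peptide receptor Fpr2 (0.24). The profiles nearest to Plet1 were Acaa1b (0.25), P2ry14 (0.26) and AW112010 (0.30), and those nearest to Car4 were Perp (0.24), the growth factor Pdgfc (0.28) and Cdh1 (0.29). Pygl lay nearest to the glycosyltransferase Gcnt2 (0.21), the endocytic receptor Ly75 (0.25) and the glutathione transferase Mgst1 (0.26). Chil3, with the largest step, had its nearest profile outside the members farther off, Acaa1b at 0.50, while the member Plet1 lay at 0.43. Pparg had other neighbours, dystrophin Dmd (0.23), thromboxane synthase Tbxas1 (0.23) and the adenylate cyclase Adcy3 (0.24). Among the members themselves Plet1 and Tgfbi were closest, at 0.19.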

How the data were processed

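Affymetrix mouse arrays measured total RNA from 12 samples, 3 in each of 4 groups. The deposited table holds 1 linear intensity per probe set and array, made by the authors with RMA per the submitters' processing notes, with no version given in the sources used here. Intensities were turned into log2(value + 1), since the deposited values are not on a log2 scale, which understates changes of dim genes. Of 22690 probe sets, 64 controls, 691 with several symbols and 1555 with none were left out. The probe set with the highest mean over all arrays stood for each of 12393 genes, and the arrays' number limits the precision.

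The tests were two-sided fits of limma 3.58.1 (lmFit and eBayes, in R 4.3.3) on the 6 arrays compared, or all 12 for the difference of changes, with Benjamini-Hochberg adjustment over all genes. Genes with an adjusted p below 0.05 are called. No 2 arrays were identical. On simulated data for 12393 genes, 68% of 100 genes changed by 0.5 log2 units and 94% of 100 changed by 1 were recovered for the estradiol comparison, and 52% and 81% for the pregnancy comparison. The changed genes were drawn at random from all genes. In unstimulated RAW264.7 the members had a median SD of 0.23, against 0.06 over all genes, so the estradiol rates do not hold for them. Promoters were searched in Python 3.11.15 with Biopython 1.88.

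The members, lists and tests were chosen with earlier results of these data known. Named genes are all members, up to 4 called genes per list and comparison by smallest p, up to 2 where none was called, and the 3 nearest profiles of each member among genes that are not members. Lists were other alveolar macrophage genes, upstream signals, PPARG targets, genes responsive to TGF-beta, the 4 families, macrophages of other tissues, core macrophage genes and markers of 8 other cell types. Of the list of macrophages of other tissues, 12 of 13 were measured, 1 rose with estradiol, beside 6.75% of all genes, and none was called with pregnancy. In control lavage against unstimulated RAW264.7, 3 were higher, beside 27.9% of all genes, and 4 lower, beside 34%. Of the 12 genes, 8 were dim in that comparison. Alternatives were quantile normalization, a common median, a filter on dim genes, other uses of probe sets, an intensity-dependent robust prior, all 12 arrays in 1 fit, other pseudocounts, array weights and each array left out.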

Additional observations from a re-analysis of the deposited data

Results flagged for a closer look

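For 9 of the genes described above, the estradiol change in RAW264.7 and the pregnancy change in lavage cells differed in the test of the difference itself (limma, adjusted over all genes, n = 3 per group), a test that called 4.43% of all genes. It also passed 1 of 12 core macrophage genes, Fcgr1 at 0.54 (adjusted p = 0.0094), and 2 of 12 genes of macrophages of other tissues, Cx3cr1 at 0.93 (adjusted p = 0.027) and Icam2 at 0.47 (adjusted p = 0.044), which were not recomputed under the alternatives. The fatty acid carrier Fabp4 differed by -1.04 log2 units (adjusted p = 0.00092), with changes of -0.25 with estradiol and 0.79 with pregnancy. The oxysterol receptor Nr1h3 differed by -0.74 (adjusted p = 0.010), with changes of -0.23 and 0.51, and the repressor Bhlhe41 by -0.65 (adjusted p = 0.019), with changes of -0.43 and 0.22. Car13 differed by -0.52 (adjusted p = 0.017), with changes of -0.32 and 0.21, Itgax by -0.53 (adjusted p = 0.038), with changes of -0.49 and 0.04, and Bhlhe40 by -0.34 (adjusted p = 0.035), with changes of -0.49 and -0.15. The mannose receptor Mrc1 differed by 0.69 (adjusted p = 0.0053), with changes of 0.71 and 0.03, and Itgav by 0.44 (adjusted p = 0.0090), with changes of 0.35 and -0.09. Tgfbi passed by 0.38 (adjusted p = 0.034), with changes of 0.48 and 0.10, at 1 of its 4 probe sets; its RAW264.7 readings lie below the dim limit in both groups, and the other 3 probe sets gave -0.09, -0.23 and -0.33. The calls of Fabp4, Nr1h3 and Mrc1 held under all 21 alternatives, whereas Itgax lost its call under 12, Tgfbi under 12 with its sign turned under 1 more, and Bhlhe40 under 10. None of these pregnancy changes was called by itself in the fit of the 6 lavage arrays, and in the fit of all 12 arrays Fabp4 was (adjusted p = 0.0059).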

How the results depend on the processing

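No paired analysis was possible because the replicates carry no numbers in the labels and were numbered in deposit order only. With each array left out in turn, the members called with estradiol numbered 1 to 3 (3 without unstimulated replicate 3) and those called for the difference of changes 0 to 1, and none was called with pregnancy. With estradiol the member count of 1 became 0 under the dim filter, which removed all 7, and 0 with the mean of probe sets, and 3 with the robust prior, all 12 arrays and array weights, which added Siglecf and Pygl. For the difference it became 0 with the mean of probe sets, the robust prior and a pseudocount of 16. Genes called with estradiol, 1414, became 4010 with array weights and 637 to 1730 with an array left out; the other alveolar macrophage genes called, 5, became 9, 8 and 12 with the robust prior, all 12 arrays and array weights and 1 to 4 with an array left out. Genes called with pregnancy, none, became 1 under the dim filter, 18 with all 12 arrays, Fabp4 among them (adjusted p = 0.0059), and 0 to 2 with an array left out (2 without control replicate 1); of the other alveolar macrophage genes 1 was then called with all 12 arrays. The 23 other alveolar macrophage genes higher in control lavage stayed at 23 to 24 throughout. The median member difference of 8.99 became 8.70 with the mean of probe sets, 8.75 with every probe set, 8.12 with a pseudocount of 16 and 6.19 with dim values raised to the 40th percentile, and 8.83 to 9.16 with an array left out. Values near 0 changed sign. With a common median Chil3 with estradiol was 0.014, Plet1 with pregnancy 0.019, Car4 with pregnancy 0.026, Pparg with estradiol 0.028 and Pygl with pregnancy 0.0065. With array weights Chil3 for the difference was -0.049, Plet1 with pregnancy 0.0037, Pparg with estradiol 0.13 and Pparg for the difference 0.081. With a pseudocount of 16 Pparg with estradiol was 0.0018, and with the mean of probe sets Tgfbi for the difference was -0.069. With an array left out, Chil3 ranged over -0.098 to 0.090 with estradiol and -0.020 to 0.17 for the difference, Plet1 over -0.047 to 0.0084 with pregnancy, Car4 over -0.064 to 0.023 with pregnancy, Pparg over -0.078 to 0.15 with estradiol, -0.024 to 0.16 with pregnancy and -0.16 to 0.068 for the difference, and Pygl over -0.072 to 0.0044 with pregnancy. The cause of these moves was not tested. Of the remaining single-gene values under alternatives, 651 kept direction and side of the threshold, 69 lost their call and 10 gained it.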
